A study of Mus musculus with 6 samples.

Results

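The adenomas described here are the 3 ApcMin control samples of the series, 3 of its 6 libraries, and they were chosen by their label alone, with no contrast to the other genotype. RNA of small intestinal adenoma tissue was sequenced with 1 library per sample, named QC4, QC5 and QC6 in the labels and treated here as replicates 4, 5 and 6. These mice carried the Apc Min allele and, by the study's methods, the silent diphtheria toxin cassette Rosa26 iDTA/WT without the Defa4-Cre that would switch it on. Their littermates of the other group, ApcMin_PCdel (QC3, QC8 and QC10), carried Apc Min, Rosa26 iDTA/WT and Defa4-Cre, which kills cells of the Paneth lineage. All mice were on a C57BL/6 background and older than 42 days, and no other treatment is given. The labels do not say that the samples came from separate mice, how many adenomas went into a library or which stretch of the small intestine they came from. No library of normal mucosa was analysed here, so each value given is a level inside adenoma tissue, with whatever neighbouring tissue was dissected with it.

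Apc is a scaffold of the complex that marks beta-catenin for destruction. When the remaining good copy of Apc is lost in a cell of an ApcMin mouse, beta-catenin builds up and drives TCF target genes, and an adenoma grows. The normal epithelium of the small intestine is renewed from Lgr5-positive stem cells at the crypt base, which sit between Paneth cells that make defensins and lysozyme. Their daughters become absorptive enterocytes or secretory goblet, enteroendocrine and tuft cells.

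Levels are given as FPKM, the fragments counted on a gene divided by its length and by the size of the library, which corrects for length and so allows levels of different genes to be set side by side. Of 48440 genes, 25417 were above 0 in at least 1 of the 3 adenomas and 20543 in all 3. A mean FPKM of at least 1 was reached by 14122 genes, of at least 10 by 7015 and of at least 100 by 887. Depth was even, with 5.642 to 5.715 gigabases of aligned sequence per library. No read counts were used, so counting error is not known and the only error given is the SD over 3 samples, which may be technical in part. A gene is counted below as 2-fold apart when log2(FPKM + 1) of the highest and lowest adenoma differ by at least 1, a scale that understates differences of weakly expressed genes.

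The 3 adenomas were not equally alike. Across genes, log2(FPKM + 1) of QC4 and QC5 had a Pearson r of 0.981, against 0.959 for QC4 with QC6 and 0.961 for QC5 with QC6, a description over genes that are not independent. Of the 14122 genes, 955 were 2-fold apart (6.76%), and QC6 stood apart from the other two in 631 of these, 66.1%. It was the high one in 403 genes (2.85% of all tested) and the low one in 228 (1.61%). The counts for QC4 were 77 high (0.545%) and 85 low (0.602%), and for QC5 85 high (0.602%) and 77 low (0.545%). With QC6 left out, 248 genes were 2-fold apart between QC4 and QC5 (1.76%). Counts of 2-fold genes in the gene lists below are to be read against the 6.76% of all genes. The whole distribution of QC6 was also shifted, with a median of all genes 0.16 lower on the log2 scale than in the other two and the lowest value of the 3 in 62.1% of genes, while QC6 was highest in 23.2%. Where a list's median difference in QC6 is given relative to all genes, it is on the log2 scale after that shift is taken off. QC6 was the only one of the 3 with clear levels of the Y-linked genes, for example Eif2s3y at 0.1504 in QC4, 1.14 in QC5 and 21.2 in QC6 and Ddx3y at 0.0751 in QC4, 0.195 in QC5 and 7.43 in QC6, and it lacked Xist, the RNA that silences an X chromosome in females, which was at 18.9 in QC4, 30.2 in QC5 and 0.00167 in QC6. With 1 such library, sex, mouse and dissection cannot be told apart.

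**Figure D1:**
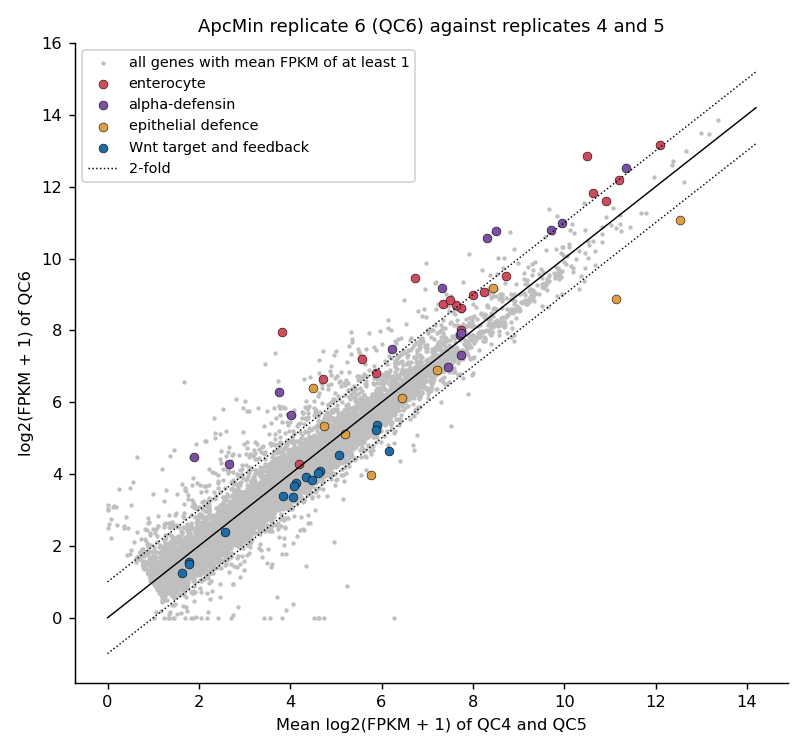
Expression in QC6 (y axis, log2(FPKM + 1)) against the mean of QC4 and QC5 (x axis, same unit) for genes averaging at least 1 FPKM, with 4 gene lists in colour. The solid line marks equal levels and the dotted lines a 2-fold difference, and all 19 enterocyte genes lie above equality while the 16 Wnt target genes lie below it.

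Antibody messages of plasma cells were among the most abundant. Igkc, the constant part of the kappa light chain (chromosome 6, 70726435 to 70726966, GRCm38), stood at 11191 in QC4, 9930.3 in QC5 and 14967 in QC6, a mean of 12029.5 ± 2621 FPKM (SD, n = 3). Igha, the heavy chain of IgA, came next after a copy of a mitochondrial gene, with 8499 in QC4, 7791 in QC5 and 11649.9 in QC6. Both were highest in QC6, by less than 2-fold. Among secreted and absorptive products of the epithelium, Apoa1, the main apolipoprotein of HDL, averaged 6004 ± 2809.6 FPKM, and Reg3b, a C-type lectin that acts against bacteria, averaged 4703 ± 2347. The 20 highest genes further held Apoa4, Rbp2, Fabp2 and Fabp1 of lipid and retinol uptake, the goblet cell products Spink4 and Zg16, the Paneth cell defensin Defa24, the small proline-rich protein Sprr2a2, and Lypd8, which keeps motile bacteria off the epithelium. Zg16, a lectin of goblet cell granules, was the steadiest of them with 2484 in QC4, 2267 in QC5 and 2374 in QC6. The 10 highest genes held 11.4%, 11.5% and 13.2% of the FPKM in QC4, QC5 and QC6.

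Several entries in the top 20 were copies of other genes. Gm29216, a pseudogene on chromosome 1, had a mean of 10009 ± 1725 FPKM, and 97.2% of its 31-base stretches are also in the mitochondrial gene mt-Co1. Gm10925, Gm28437 and Gm28661 share all of theirs with mt-Atp6, mt-Co3 and mt-Co2, while all 37 mitochondrial genes are listed at 0 in each adenoma. The entry Gm26377 lies wholly within the sequence of Eef1a1, a translation elongation factor, and Sprr2a2 shares 97.8% with near-identical neighbours. Gm23935 shares 100% of its stretches with other genes, Apoa4 64.5%, Defa24 57.1% and Gm13340 50.4%. Values of such genes are uncertain, since reads could be assigned to either copy. Of all genes tested, 12.7% shared at least 50% of their 31-base stretches with another gene.

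**Figure D2:**
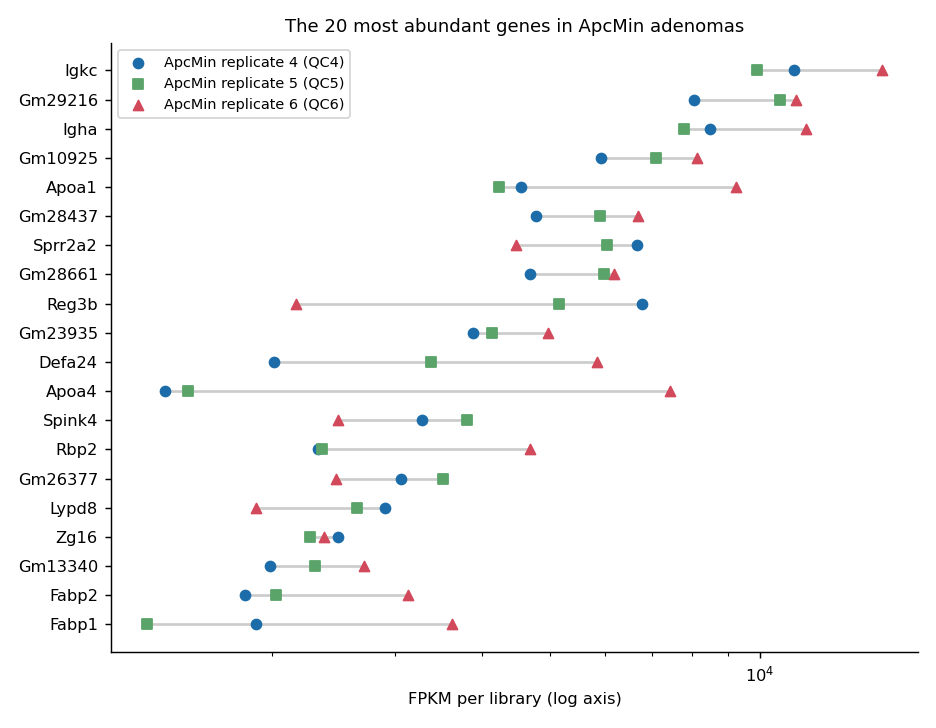
FPKM (x axis, log scale) of the 20 genes with the highest mean over the 3 ApcMin adenomas (y axis), with 1 symbol per library and a line from the lowest to the highest. Reg3b and Apoa4 spread most, in opposite directions, with QC6 lowest in the first and highest in the second.

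The labelled tissue was checked against markers of small intestinal epithelium. All 13 pan-epithelial genes were expressed, none was 2-fold apart, and their summed FPKM was 9424 in QC4, 9626 in QC5 and 7535 in QC6. Epcam, an adhesion protein of epithelial cells, stood at 948 in QC4, 960.0 in QC5 and 735 in QC6. Cdx2 and Hnf4a, transcription factors of intestinal epithelium, were almost level, with 53.2 in QC4, 51.6 in QC5 and 52.6 in QC6 for Cdx2 and 237 in QC4, 242 in QC5 and 231 in QC6 for Hnf4a. Krt19, a keratin, spread most of the list, at 1286 in QC4, 1375 in QC5 and 733 in QC6. Of 8 matched large intestine genes, Car1, Hoxd13 and Insl5 were listed at 0 in every adenoma. Car4, a carbonic anhydrase on that list, was nevertheless at 35.96 in QC4, 52.8 in QC5 and 179 in QC6.

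Genes that report on Wnt signalling were on in all 3 adenomas and lowest in QC6 throughout. The 16 targets and feedback genes summed to 416 in QC4, 351 in QC5 and 233 in QC6 FPKM, and all 16 had their lowest value in QC6, where 62.1% of all genes did. Relative to the shift of all genes the list's median in QC6 was 0.33 lower. Only Notum was 2-fold apart, 1 of 16 against the 6.76% of all genes. Notum, a secreted enzyme that inactivates Wnt ligands (chromosome 11, 120653788 to 120661175), stood at 84.9 in QC4, 58.8 in QC5 and 23.9 in QC6, so the 3 adenomas were well separated. Nkd1, an intracellular brake on the pathway, had 61.7 in QC4, 55.5 in QC5 and 40.1 in QC6. Axin2, a feedback scaffold of the destruction complex, had 24.4 in QC4, 23.7 in QC5 and 16.03 in QC6, and QC4 and QC5 were alike. Myc, a growth regulator, was at 21.7 in QC4, 25.2 in QC5 and 15.4 in QC6, and Ccnd1, a cyclin of G1, at 59.1 in QC4, 56.5 in QC5 and 36.2 in QC6. Lef1, a partner of beta-catenin, was near the detection filter at 2.09 in QC4, 2.07 in QC5 and 1.38 in QC6.

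Stem cell genes were expressed in all 3 adenomas and summed to 435 in QC4, 391 in QC5 and 390.1 in QC6 FPKM, with a median in QC6 of -0.26 relative to all genes. Lgr5, the R-spondin receptor that marks crypt base stem cells, was at 14.5 in QC4, 12.8 in QC5 and 8.84 in QC6, and Ascl2, a transcription factor of the same cells, at 13.5 in QC4, 11.2 in QC5 and 8.31 in QC6, with QC6 lowest in both. Olfm4, a secreted glycoprotein of stem cells, went the other way with 51.7 in QC4, 68.4 in QC5 and 113 in QC6. Hopx, a marker of reserve stem cells, was low in QC5 alone, at 47.9 in QC4, 16.8 in QC5 and 54.2 in QC6. Olfm4 and Hopx were the 2 of 12 genes that were 2-fold apart. Of the list, Prom1, a membrane protein of progenitors, had the highest mean, 101 ± 31.3 FPKM (SD, n = 3).

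Proliferation genes summed to 546 in QC4, 506 in QC5 and 402 in QC6 FPKM and 0 of 15 were 2-fold apart, but the median range of the list was 0.56 on the log2 scale, against 0.34 for all genes. Pcna, the sliding clamp of DNA replication, stood at 104 in QC4, 94.96 in QC5 and 85.1 in QC6. Mki67, which coats mitotic chromosomes, was at 20.1 in QC4, 21.6 in QC5 and 13.6 in QC6 and Top2a, a topoisomerase, at 57.9 in QC4, 65.7 in QC5 and 42.3 in QC6. QC6 was lowest in 13 of the 15, against 62.1% of all genes, with a median of -0.19 relative to all genes. The exceptions were Cdk1, the mitotic kinase, with 60.7 in QC4, 38.4 in QC5 and 38.5 in QC6, and Tyms, which makes thymidylate and was highest in QC6, with 13.02 in QC4, 9.94 in QC5 and 18.8 in QC6.

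Enterocyte genes set QC6 apart from the other two. Their sum was 14169 in QC4, 13715 in QC5 and 33179 in QC6 FPKM, QC6 was highest in 19 of 19 genes, against 23.2% of all genes, and 14 of 19 were 2-fold apart. Between QC4 and QC5 none of the 19 was 2-fold apart, and without QC6 the sum averaged 13942 FPKM. The list's median in QC6 was 1.23 above the other two on the log2 scale, relative to the shift of all genes. Apoa4, an apolipoprotein of chylomicrons (chromosome 9, 46240696 to 46243459), was at 1403 in QC4, 1512 in QC5 and 7440.3 in QC6, with QC4 and QC5 alike. Apoa4 shares 64.5% of its 31-base stretches with other genes, so its level is uncertain. Apoc3, which slows lipolysis, had 120.2 in QC4, 92.4 in QC5 and 705 in QC6. Cyp3a11, a drug- and steroid-metabolising cytochrome P450, differed most, at 12.8 in QC4, 13.3 in QC5 and 248 in QC6, a 19.3-fold ratio of highest to lowest. The brush border enzymes also had QC6 on top. Sis, sucrase-isomaltase, was at 276 in QC4, 234 in QC5 and 505 in QC6, Lct, lactase, at 57.4 in QC4, 38.2 in QC5 and 147 in QC6 and Treh, trehalase, at 25.7 in QC4, 25.2 in QC5 and 98.3 in QC6. Alpi, intestinal alkaline phosphatase, differed in all 3 libraries, at 237 in QC4, 387 in QC5 and 539 in QC6. The sodium-glucose transporter Slc5a1 stood at 164 in QC4, 159 in QC5 and 426 in QC6. Mep1a and Mgam differed little, with 17.8 in QC4, 16.9 in QC5 and 18.4 in QC6 for Mep1a, a metalloprotease.

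The promoters of the enterocyte genes (RefSeq, GRCm38.p6, 250 bases before to 50 after the start of the gene) were searched for 6 motifs on both strands. The list was made by cell type, and a link of the motifs to the levels in QC6 was not tested. Promoters were found for 17 of the 19. The HNF4 motif, CAAAGTCCA or CAAAGTTCA, was in 5 of 17, or 29.4%, against 0.861% of all 32851 promoters. HNF4 factors are nuclear receptors of intestinal and liver epithelium. The TCF/LEF motif, CTTTGAT or CTTTGAA, was in 3 of 17 (8.65% of all), the CDX motif, TTTATGG or TTTATTG or TTTACGA, in 4 (7.74%), the GATA motif, AGATAAG, in 1 (3.04%), the TATA motif, TATAAA, in 7 (13.6%) and the HNF1 palindrome in 0 (0.00913%). In the promoters of the Wnt list, 15 for 9 genes, the HNF4 and CDX motifs were in 0, the TCF/LEF motif in 1 and the TATA motif in 5 (33.3%). In 12 promoters of the non-defensin Paneth list the HNF4 motif was in 1 (8.33%), the TCF/LEF motif in 2 (16.7%) and the CDX motif in 3, a CDX share like that of the enterocyte genes. The HNF4 motif was in 0 of 11 stem cell, 0 of 13 proliferation and 0 of 5 goblet promoters. In these lists the TCF/LEF motif was in 1 (9.09%), 1 (7.69%) and 1 (20%), and the CDX motif in 0, 1 (7.69%) and 1 (20%). On one strand or the other, the HNF4 and TCF/LEF motifs share the letters CAAAG and the TATA motif shares the letters ATAAA with the CDX forms other than TTTACGA. A match describes letters, not binding. Apoc3, whose spread of 7.62-fold was wider than that of Apoa4, was not among the 5 genes with an HNF4 match. Of these 5, the promoters of the 3 with the widest spread follow on the gene's strand. The HNF4 motif or its reverse complement is in capitals, and short stretches around it follow for the remaining genes.
Apoa4, chr9:46240594-46240893, plus strand: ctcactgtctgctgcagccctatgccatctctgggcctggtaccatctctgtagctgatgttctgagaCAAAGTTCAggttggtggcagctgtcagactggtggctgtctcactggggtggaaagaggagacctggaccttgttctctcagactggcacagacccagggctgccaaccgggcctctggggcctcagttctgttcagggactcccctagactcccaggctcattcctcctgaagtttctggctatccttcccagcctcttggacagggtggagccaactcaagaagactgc
Cyp3a11, chr5:145879805-145880104, minus strand: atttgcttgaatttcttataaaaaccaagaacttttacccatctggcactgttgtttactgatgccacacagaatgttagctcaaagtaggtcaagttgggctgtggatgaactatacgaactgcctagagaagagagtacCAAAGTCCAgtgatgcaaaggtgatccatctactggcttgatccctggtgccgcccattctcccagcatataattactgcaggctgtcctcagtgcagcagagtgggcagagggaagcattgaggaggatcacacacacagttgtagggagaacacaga
Treh, chr9:44672983-44673282, plus strand: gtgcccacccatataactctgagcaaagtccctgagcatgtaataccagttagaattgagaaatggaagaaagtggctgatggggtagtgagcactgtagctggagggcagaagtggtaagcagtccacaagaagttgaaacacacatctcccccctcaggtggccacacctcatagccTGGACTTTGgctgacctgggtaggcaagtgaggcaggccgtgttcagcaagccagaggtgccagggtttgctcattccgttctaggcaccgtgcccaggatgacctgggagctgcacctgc
Alpi: tagccagggaCAAAGTCCAtctctgattt
Rbp2: acagacctgtTGAACTTTGcaaaggcaag
Positions are counted from the RefSeq start at 0, which for Apoa4 and Rbp2 is not the start of the deposited gene entry. On that count the motif begins at -182 in Apoa4, -109 in Cyp3a11, -71 in Treh, -19 in Alpi and -101 in Rbp2. In the same order, the highest adenoma was 5.303, 19.3, 3.91, 2.27 and 2.01 times the lowest.

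Genes that mark position along the small intestine did not place the 3 adenomas alike. Of 9 proximal genes 7 were 2-fold apart, and of 7 distal genes 4 were, against 6.76% of all genes. The proximal genes Lct and Fabp1 are also on the enterocyte list, so the lists are not separate. Ada, adenosine deaminase of the duodenum, had 62.3 in QC4, 243 in QC5 and 573 in QC6, and Fabp1, a fatty acid carrier, 1895 in QC4, 1324 in QC5 and 3626 in QC6. QC5 stood out in Cybrd1, a duodenal iron reductase, with 5.64 in QC4, 21.4 in QC5 and 5.72 in QC6, in Slc40a1, the iron exporter ferroportin, with 14.7 in QC4, 30.9 in QC5 and 9.24 in QC6, and in Pdx1, a transcription factor of duodenum and pancreas, with 2.31 in QC4, 5.98 in QC5 and 1.499 in QC6. The distal list had QC6 highest in 4 of its 7 tested genes and lowest in 3, against 23.2% and 62.1% of all genes. Its bile acid genes were split. Fabp6, the bile acid carrier, had 8.22 in QC4, 23.6 in QC5 and 2.39 in QC6 and Slc10a2, the bile acid transporter, 5.14 in QC4, 6.41 in QC5 and 0.905 in QC6. Slc51a and Slc51b, which together form the basal bile acid exporter, were highest in QC6 by less than 2-fold, at 53.8 in QC4, 50.7 in QC5 and 57.3 in QC6 and at 48.5 in QC4, 44.3 in QC5 and 60.9 in QC6 in turn. Fgf15, the hormone that reports ileal bile acids, was under 1 FPKM in each adenoma. Muc3, a membrane mucin, had the highest mean of the distal list, with 255 in QC4, 283 in QC5 and 402 in QC6. Gata4, a transcription factor of the jejunum and duodenum, was on in all 3, at 35.3 in QC4, 22.6 in QC5 and 40.5 in QC6.

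Goblet cell genes summed to 10266 in QC4, 10521 in QC5 and 8358 in QC6 FPKM, with 2 of 12 genes 2-fold apart and a median in QC6 of -0.41 relative to all genes. Muc2, the gel-forming mucin, stood at 382 in QC4, 600.3 in QC5 and 206 in QC6, so QC6 was lowest and the 3 were well apart. Clca1, a secreted protease of mucus, was highest in QC6 instead, at 136 in QC4, 167 in QC5 and 421 in QC6. Tff3, a trefoil peptide, varied little, with 1864 in QC4, 1779 in QC5 and 1658 in QC6, and so did Fcgbp, a mucus protein, with 228 in QC4, 249 in QC5 and 229 in QC6. Atoh1, the transcription factor of the secretory lineage, was at 9.87 in QC4, 9.58 in QC5 and 7.21 in QC6.

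Of 13 enteroendocrine genes tested, 5 were 2-fold apart and QC6 was highest in 10, against 23.2% of all genes. Gip, an incretin hormone, had 24.3 in QC4, 25.8 in QC5 and 61.5 in QC6, Cck, which releases bile, 8.38 in QC4, 11.8 in QC5 and 23.5 in QC6 and Ghrl, ghrelin, 7.84 in QC4, 6.48 in QC5 and 22.6 in QC6. Sst, somatostatin, differed in all 3 libraries at 9.83 in QC4, 19.4 in QC5 and 34.3 in QC6. Chga, chromogranin A of secretory granules, was at 11.8 in QC4, 14.3 in QC5 and 23.97 in QC6. Reg4, which had the highest mean of the list, was 2-fold lower in QC6, at 811 in QC4, 801 in QC5 and 402 in QC6.

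Of the tuft cell genes, 5 of 9 tested genes were 2-fold apart, each with QC6 high, which held for 2.85% of all genes. Dclk1, a kinase that marks tuft cells, was at 2.42 in QC4, 1.396 in QC5 and 5.02 in QC6, Rgs13, a regulator of G protein signals, at 1.85 in QC4, 3.09 in QC5 and 8.91 in QC6 and Sh2d6 at 2.81 in QC4, 4.62 in QC5 and 11.9 in QC6. Pou2f3, the transcription factor that defines the cells, was below the filter, at 0.483 in QC4, 0.584 in QC5 and 1.802 in QC6. Avil, an actin binding protein, was the most abundant of the list and highest in QC4, with 46.3 in QC4, 35.5 in QC5 and 31.1 in QC6.

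Paneth cell products were abundant in all 3 adenomas. The 13 non-defensin genes summed to 3513 in QC4, 4484 in QC5 and 5314 in QC6 FPKM. Lyz1, the lysozyme of Paneth granules, was at 1672 in QC4, 2229 in QC5 and 2281 in QC6, less than 2-fold apart. Ang4, an antimicrobial ribonuclease, spread most, at 153 in QC4, 381 in QC5 and 1108 in QC6, and the 3 adenomas were well separated. Mmp7, the protease that activates defensins, went the other way, with 456 in QC4, 494 in QC5 and 234 in QC6. Wnt3, the Wnt ligand of Paneth cells, was close to the filter, at 1.86 in QC4, 2.62 in QC5 and 1.41 in QC6. The median difference of QC6 over this list was -0.07 on the log2 scale and 0.10 relative to the shift of all genes, so its direction depends on the scaling.

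Alpha-defensins were among the genes that differed most. Of 30 entries with a Defa symbol, 11 were at 0 in all 3 adenomas and 15 had a mean FPKM of at least 1. All 15 were 2-fold apart, against 6.76% of all genes, and 6 of 15 were between QC4 and QC5 alone. The family summed to 4611 in QC4, 8392 in QC5 and 14609.6 in QC6 FPKM, lowest in QC4 and highest in QC6. Defa24, the most abundant, had 2013 in QC4, 3378 in QC5 and 5850.2 in QC6, and Defa17 789 in QC4, 1238 in QC5 and 2029 in QC6. The members did not keep one order. Defa20, Defa2, Defa21 and Defa22 were highest in QC5, for example Defa2 with 122 in QC4, 373 in QC5 and 159 in QC6. Every member tested shared at least 50% of its 31-base stretches with another gene, so single members are uncertain. Some of that sequence lies in genes without a Defa symbol, such as Gm15284, at 569 in QC4, 1174 in QC5 and 2669.7 in QC6, so the sum is uncertain as well.

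The list of epithelial defence genes summed to 9797 in QC4, 8107 in QC5 and 3564 in QC6 FPKM, with a median in QC6 of -0.16 relative to all genes. Reg3b had 6792 in QC4, 5153 in QC5 and 2164 in QC6, so QC6 was lowest. Reg3g, its close relative, was at 2284 in QC4, 2220.4 in QC5 and 465 in QC6, a 4.91-fold ratio. Saa3, an acute-phase protein, was at 65.6 in QC4, 43.02 in QC5 and 14.9 in QC6. Reg3a, a lectin of the same family, was highest in QC6, however, with 27.2 in QC4, 17.2 in QC5 and 83.6 in QC6, and Retnlb, a resistin-like protein of goblet cells, was low in QC4 alone, with 13.2 in QC4, 49.3 in QC5 and 39.2 in QC6. Of 9 tested genes, 5 were 2-fold apart. Pigr, which carries IgA across the epithelium, stood at 344 in QC4, 348 in QC5 and 577 in QC6.

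Genes of the fetal-like, regenerative state were mostly lower in QC6, with 12 of 13 genes lowest there, against 62.1% of all genes. Of the 13, 5 were 2-fold apart, against 6.76% of all genes. Clu, a secreted chaperone of revival stem cells, had the highest mean and stood at 1322 in QC4, 1035 in QC5 and 783 in QC6. Anxa1, a phospholipid binding protein, spread most, with 172 in QC4, 143 in QC5 and 63.1 in QC6. Ly6a, a surface protein of fetal-like cells, was at 68.6 in QC4, 88.8 in QC5 and 35.5 in QC6 and Il33, an alarmin, at 107 in QC4, 66.1 in QC5 and 45.2 in QC6. Relative to all genes the median of the list in QC6 was 0.68 lower.

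**Figure D3:**
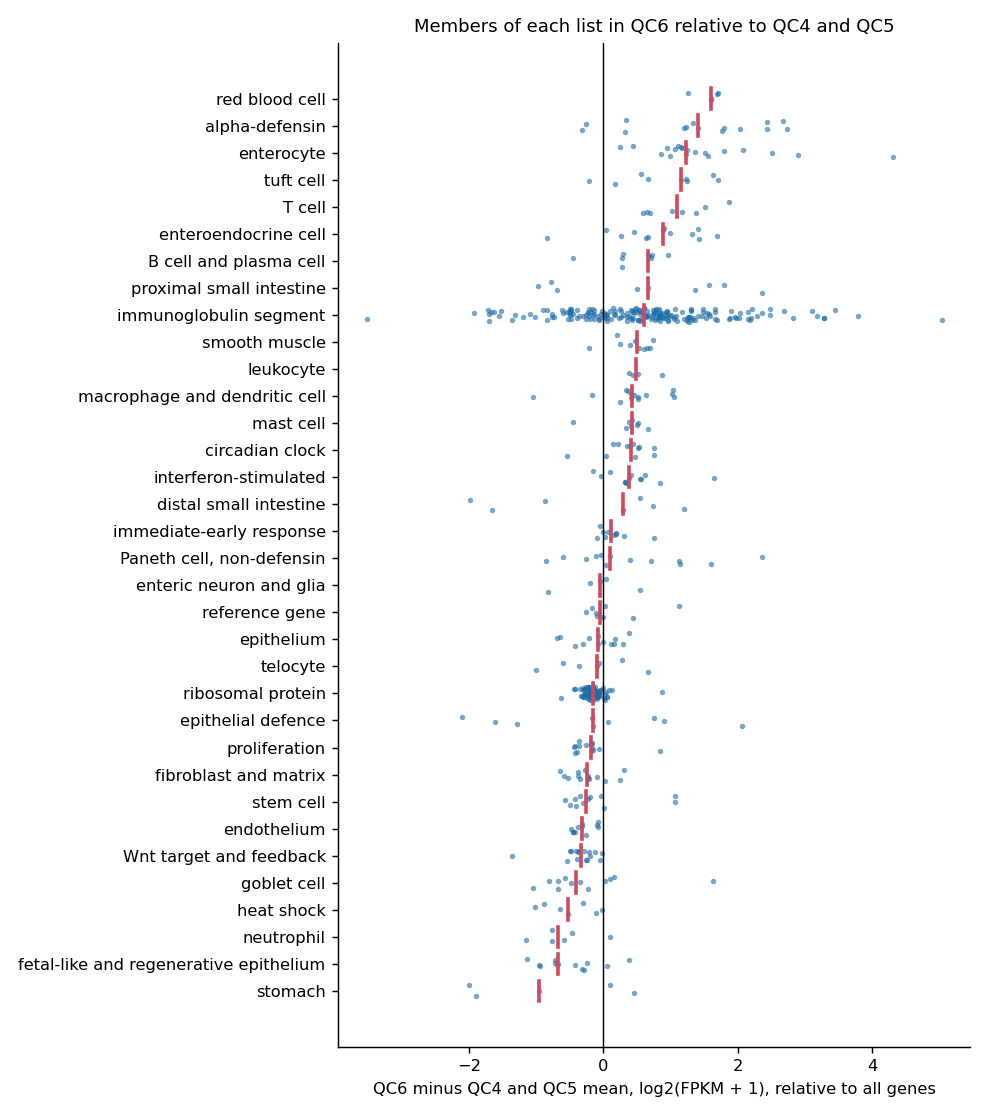
Difference of each list gene in QC6 from the mean of QC4 and QC5 (x axis, log2(FPKM + 1), with the median of all genes set to 0), by gene list (y axis, lists with at least 4 tested genes). Each dot is a gene and the red bar the median of the list, and enterocyte and alpha-defensin genes lie to the right while stomach, fetal-like and neutrophil genes lie to the left.

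Stromal genes were far below the epithelial ones. In bulk tissue, fewer cells of a type and less RNA per cell cannot be told apart. The median range of the fibroblast, telocyte, endothelial and smooth muscle lists was 0.53, 0.59, 0.60 and 0.71 on the log2 scale, each above the 0.34 of all genes. Relative to all genes, the median in QC6 was -0.25 for the fibroblast list and -0.32 for the endothelial list. Of 14 fibroblast and matrix genes tested, 0 were 2-fold apart, and the list summed to 485 in QC4, 513 in QC5 and 352 in QC6 FPKM, less than a single keratin such as Krt18, with 725 in QC4, 724 in QC5 and 412 in QC6. Sparc, a matrix protein, was at 132 in QC4, 134 in QC5 and 78.4 in QC6, and Col1a1, collagen I, at 36.3 in QC4, 40.7 in QC5 and 21.6 in QC6. The 11 endothelial genes were all lowest in QC6, against 62.1% of all genes, and 0 were 2-fold apart. Plvap, of capillary diaphragms, was at 39.3 in QC4, 43.3 in QC5 and 26.5 in QC6. Pecam1, a junction protein, was at 12.04 in QC4, 12.8 in QC5 and 7.5998 in QC6. Smooth muscle genes were low in QC4, with a sum of 249 in QC4, 395 in QC5 and 377 in QC6 FPKM and 0 of 10 genes 2-fold apart. Tagln, an actin binding protein, stood at 63.9 in QC4, 100.2 in QC5 and 84.5 in QC6, Acta2, smooth muscle actin, at 62.8 in QC4, 97.99 in QC5 and 80.5 in QC6 and Des, desmin, at 28.2 in QC4, 49.2 in QC5 and 55.8 in QC6. Of 7 telocyte genes tested, 3 were 2-fold apart, against 6.76% of all genes. F3, tissue factor, was at 40.4 in QC4, 59.9 in QC5 and 21.3 in QC6, Wnt5a, a Wnt ligand, was highest in QC4, with 8.26 in QC4, 3.61 in QC5 and 2.87 in QC6, and Bmp4, which limits stemness, was low in QC5, with 8.71 in QC4, 3.15 in QC5 and 7.99 in QC6. Of 5 enteric neuron and glia genes tested, 2 were 2-fold apart. Vip, a neuropeptide, had the highest mean and the widest spread, with 3.07 in QC4, 9.96 in QC5 and 7.68 in QC6, and Sox10, which defines enteric glia, stood at 0.0537 in QC4, 0.0883 in QC5 and 0.0972 in QC6. The Cajal cell marker Ano1, a chloride channel, was at 36.8 in QC4, 39.5 in QC5 and 19.1 in QC6, Kit, a receptor of the same cells and of mast cells, at 5.76 in QC4, 6.83 in QC5 and 5.36 in QC6 and Etv1 at 0.348 in QC4, 0.316 in QC5 and 0.399 in QC6.

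Immune genes differed by lineage. The pan-leukocyte genes Ptprc (CD45), Coro1a, Laptm5 and Cd53 were expressed in all 3, with Ptprc at 4.51 in QC4, 5.46 in QC5 and 8.75 in QC6, Coro1a at 13.3 in QC4, 12.9 in QC5 and 17.1 in QC6, Laptm5 at 10.7 in QC4, 13.9 in QC5 and 14.4 in QC6 and Cd53 at 8.36 in QC4, 7.76 in QC5 and 10.03 in QC6, and 0 of 4 were 2-fold apart. Plasma cell genes dominated, the B cell and plasma cell list summing to 21070.0 in QC4, 19036 in QC5 and 28795 in QC6 FPKM, with 0 of 9 genes 2-fold apart. Ms4a1 and Pax5, defining genes of B cells, were under 1 FPKM in each adenoma, while Jchain, which joins IgA dimers, was at 1182 in QC4, 1133 in QC5 and 2012 in QC6. T cell genes were low, and lowest in QC4. Gzma, a granzyme of intraepithelial lymphocytes, had 21.5 in QC4, 45.7 in QC5 and 105 in QC6, Gzmb 6.504 in QC4, 10.6 in QC5 and 22.8 in QC6 and Cd3g, a chain of the T cell receptor complex, 3.51 in QC4, 5.25 in QC5 and 11.3 in QC6. Of 8 tested T cell genes, 5 were 2-fold apart, and all 8 were higher in QC6 than in QC4. The antigen presentation gene Cd74 was at 432 in QC4, 597 in QC5 and 937 in QC6 and H2-Aa, a class II chain, at 189.9 in QC4, 236 in QC5 and 388 in QC6. C1qa, a complement gene of macrophages, was nearly level, with 31.8 in QC4, 32.7 in QC5 and 38.6 in QC6. The main entry of Itgam, an integrin of myeloid cells, was low in QC6, with 3.23 in QC4, 2.94 in QC5 and 0.7701 in QC6. A second entry of the gene, which holds 67.2% of its 31-base stretches, was at 0 in QC4, 0 in QC5 and 1.11 in QC6. The level of Itgam in QC6 was thus split between 2 entries, and the main entry overstates the drop. Of 8 tested mast cell genes 4 were 2-fold apart, each with QC4 low, which held for 0.602% of all genes. Mcpt1, a mucosal protease, had 259.6 in QC4, 591 in QC5 and 497 in QC6 and Mcpt2 162 in QC4, 331 in QC5 and 279 in QC6. Tpsb2, on the same list, was lowest in QC6 instead, with 11.2 in QC4, 15.8 in QC5 and 8.38 in QC6. Of the eosinophil genes, Siglecf, a surface lectin, had 0.706 in QC4, 1.15 in QC5 and 3.98 in QC6, Prg2, the granule major basic protein, 2.997 in QC4, 2.201 in QC5 and 4.602 in QC6, Ear2, a ribonuclease, 0.463 in QC4, 0.582 in QC5 and 1.52 in QC6 and Ccr3, the eotaxin receptor, 0.342 in QC4, 0.255 in QC5 and 0.236 in QC6, while Epx, their peroxidase, was listed at 0. Among interferon-stimulated genes, 1 of 13 was 2-fold apart, the deISGylase Usp18 with 4.15 in QC4, 6.49 in QC5 and 16.4 in QC6, and Irf7, a transcription factor, had the highest mean, with 24.7 in QC4, 29.9 in QC5 and 44.2 in QC6. Of 6 neutrophil genes tested 4 were 2-fold apart, against 6.76% of all genes, and Elane and Camp were listed at 0. Ltf, lactoferrin, had the highest mean of them, with 33.04 in QC4, 25.4 in QC5 and 14.7 in QC6, and S100a8, a subunit of calprotectin, the widest spread, with 5.87 in QC4, 1.05 in QC5 and 0.982 in QC6.

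Markers of other tissues were checked as well. Haemoglobin genes were in all 3, and all 5 red blood cell genes were 2-fold apart, with QC6 highest and QC5 lowest. Hbb-bs, a beta-globin, stood at 297 in QC4, 163 in QC5 and 646 in QC6, and it shares 54.4% of its 31-base stretches with other genes. Hbb-bt was at 162 in QC4, 84.3 in QC5 and 340.1 in QC6, the alpha-globins Hba-a1 and Hba-a2 at 215 in QC4, 119.6 in QC5 and 439 in QC6 and at 247 in QC4, 137 in QC5 and 501 in QC6 in turn, and Alas2, which starts haem synthesis in red cells, at 3.12 in QC4, 1.45 in QC5 and 5.82 in QC6. Of 5 tested stomach genes 3 were 2-fold apart. Gkn1, a gastric mucosal protein, was at 119 in QC4, 48.9 in QC5 and 34.5 in QC6, Gkn2 at 15.97 in QC4, 7.41 in QC5 and 1.66 in QC6 and Tff1, a gastric trefoil peptide, at 105 in QC4, 104 in QC5 and 24.3 in QC6. Pgc, a pepsinogen, was at 12.9 in QC4, 8.81 in QC5 and 10.2 in QC6 and Atp4a, the acid pump, at 1.85 in QC4, 0.831 in QC5 and 1.804 in QC6, while Muc5ac was under 1 FPKM. Mesothelial Msln stood at 3.89 in QC4, 5.52 in QC5 and 1.96 in QC6 and Upk1b at 3.11 in QC4, 3.06 in QC5 and 1.32 in QC6, and Upk3b, Lrrn4 and Wt1 were under 1 FPKM. Of skeletal muscle genes Myh4 and Mb were listed at 0 and Mylpf, a myosin light chain, was at 3.37 in QC4, 3.76 in QC5 and 4.53 in QC6. Of 9 exocrine pancreas genes 7 were at 0 in all adenomas, and of 7 adipocyte genes 4. Cela1, an elastase, was the pancreatic gene with a clear level, at 84.8 in QC4, 72.2 in QC5 and 45.7 in QC6, and Cidec, a lipid droplet protein, the highest of the adipocyte list, at 31.4 in QC4, 44.4 in QC5 and 91.7 in QC6. Relative to all genes, the median in QC6 was 1.61 for the red blood cell list and -0.96 for the stomach list. In the pancreas and skeletal muscle lists 0 tested genes were 2-fold apart. The part of these lists in the other results was not tested.

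**Figure D4:**
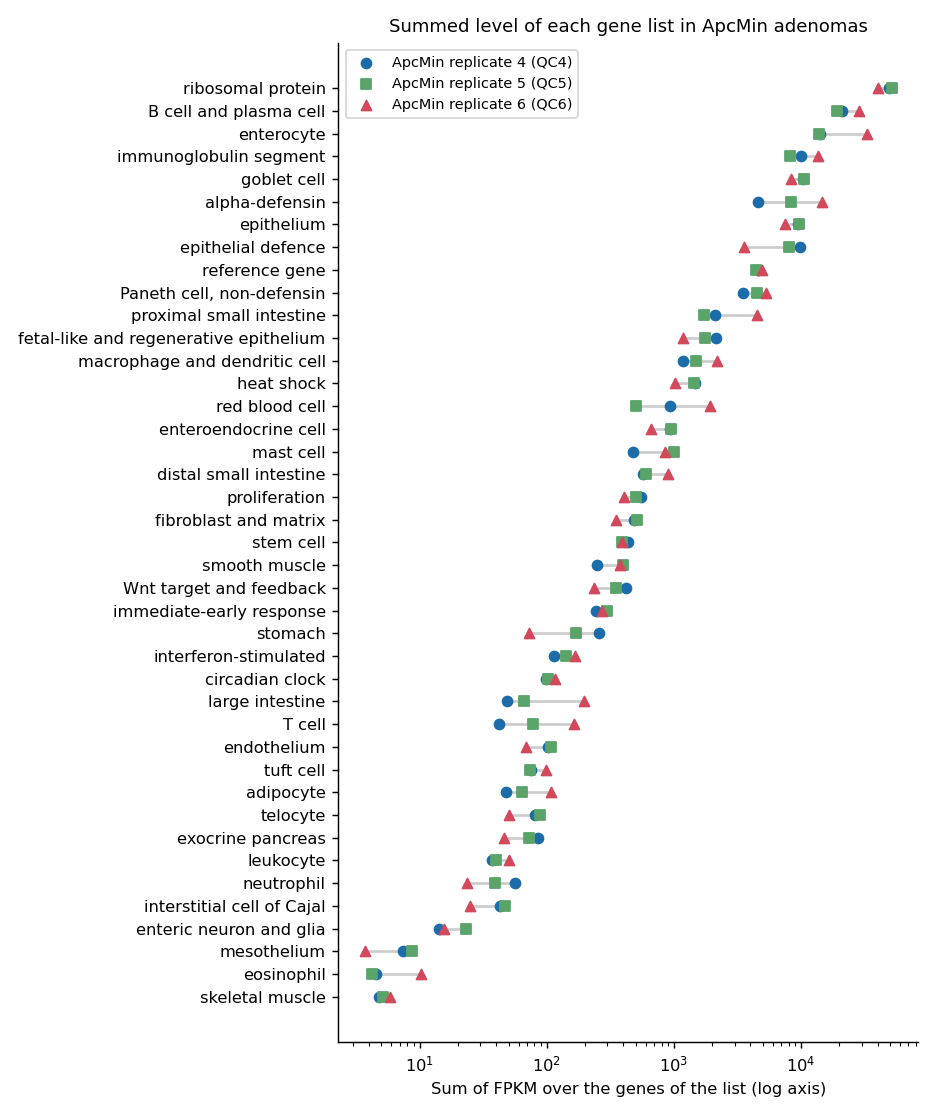
Summed FPKM of each gene list (x axis, log scale) in each ApcMin adenoma (1 symbol per library, with a line from lowest to highest), with lists ordered by mean. Enterocyte genes reached 33179 FPKM in QC6 against 14169 and 13715 in QC4 and QC5. The sums of the stem cell and reference gene lists spread least.

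The 8 genes used as references had a median range of 0.33 on the log2 scale, like the 0.34 of all genes. Gapdh, the study's RT-qPCR reference, was at 209 in QC4, 185 in QC5 and 239 in QC6, and 0 of 8 reference genes were 2-fold apart. B2m, a chain of MHC class I, came close to it, at 850.3 in QC4, 887 in QC5 and 1687 in QC6. Of 88 ribosomal protein genes 1 was 2-fold apart, and their sum, 49054 in QC4, 51999 in QC5 and 40443 in QC6 FPKM, made up 8.07% of the FPKM on average. Of 10 immediate-early genes and 12 circadian clock genes, 0 were 2-fold apart. Fos, an early response transcription factor, was at 50.4 in QC4, 76.6 in QC5 and 69.1 in QC6 and Zfp36, an RNA-decay factor, at 22.8 in QC4, 29.01 in QC5 and 39.3 in QC6. Among the clock genes Tef, an output regulator, was at 16.4 in QC4, 19.8 in QC5 and 27.8 in QC6 and Per2, a core repressor, at 4.54 in QC4, 7.14 in QC5 and 9.09 in QC6. Of 7 heat shock genes 2 were, the near-identical pair Hspa1a, with 6.78 in QC4, 7.94 in QC5 and 3.05 in QC6, and Hspa1b, with 12.7 in QC4, 16.5 in QC5 and 5.84 in QC6. Hspa8, a constitutive chaperone, had the highest mean of that list, with 1195 in QC4, 1142 in QC5 and 849 in QC6.

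Ranked by the SD of log2(FPKM + 1), the 30 most variable genes were largely copies. Of these, 18 shared at least 50% of their 31-base stretches with another gene, and 14 were at 0 in at least 1 adenoma. Gm26825, a lincRNA entry that shares 94.6% with other genes, Hspa8 among them, was at 138 in QC4, 0 in QC5 and 0 in QC6. Eno1b was at 72.6 in QC4, 0 in QC5 and 52.6 in QC6, while Eno1, whose sequence it largely shares, was at 367, 296 and 238 FPKM in the same order. Fam221b, of which little is shared, was at 0 in QC4, 25.1 in QC5 and 34.4 in QC6, Gm17494 was at 66.6 in QC4, 0.01505 in QC5 and 53.002 in QC6 and Usp50, a ubiquitin protease gene, at 29.9 in QC4, 5.47 in QC5 and 0 in QC6. Gm6977, a processed pseudogene on the X chromosome, was at 69.6 in QC4, 82.7 in QC5 and 0 in QC6. Such on and off values occurred in each library, with QC4 apart in 6 of the 30 genes, QC5 in 10 and QC6 in 14. Over all 2-fold genes, QC4, QC5 and QC6 stood apart in 17.0%, 17.0% and 66.1%. Among those 14 were the sex-linked genes Xist and Eif2s3y, and Gm27927, which lies wholly within Xist. Gm6977 and Gm21887, both listed on the X chromosome, were among them too and were at 0 in QC6, which lacked Xist. In the other group both were at 0 in QC3, which also lacked Xist. Gm6977 was at 60.6 in QC8 and 66.1 in QC10, and Gm21887 at 5.91 in QC8 and 14.6 in QC10. A link of these entries to sex was not tested.

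A second ranking, made after the first was seen, kept genes above 0 in every adenoma that share under 50% of their sequence. Of its 30 genes QC6 stood apart in 18, high in 15 of them. Among all 955 genes 2-fold apart QC6 stood apart in 631, or 66.1%, and was high in 403. The 18 included the sex-linked genes Xist, Eif2s3y and Ddx3y. Immunoglobulin variable segments made up 9, which each plasma cell clone joins and mutates in its own way. Igkv1-99 was high in QC4 alone, with 88.3 in QC4, 0.636 in QC5 and 1.83 in QC6, and Ighv9-4 in QC6, with 13.8 in QC4, 7.01 in QC5 and 133 in QC6. Over the whole genome, 118 of 195 tested segments were 2-fold apart, against 6.76% of all genes. Akp3, an alkaline phosphatase of the small intestine (chromosome 1, 87124973 to 87127912), was the most variable enzyme, high in QC5 alone, at 2.89 in QC4, 161 in QC5 and 14.7 in QC6. Cyp2b10, a cytochrome P450, had 13.3 in QC4, 10.2 in QC5 and 165 in QC6, Ces1d, a carboxylesterase, 1.49 in QC4, 2.04 in QC5 and 24.4 in QC6 and Slc27a2, a fatty acid transporter, 2.74 in QC4, 4.16 in QC5 and 29.3 in QC6, all with QC6 high. Leap2, an antagonist of the ghrelin receptor, was alike in QC4 and QC5, at 25.1 in QC4, 25.2 in QC5 and 172 in QC6. Pla2g4c, a phospholipase, was at 19.2 in QC4, 74.6 in QC5 and 190.1 in QC6 and Sult6b2, a sulfotransferase, at 18.3 in QC4, 83.4 in QC5 and 249 in QC6, both lowest in QC4 and highest in QC6. Muc1, a membrane mucin, had 0.262 in QC4, 7.52 in QC5 and 0.2296 in QC6. Tmprss15, the enteropeptidase of the duodenum, had 0.0282 in QC4, 2.92 in QC5 and 9.89 in QC6.

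**Figure D5:**
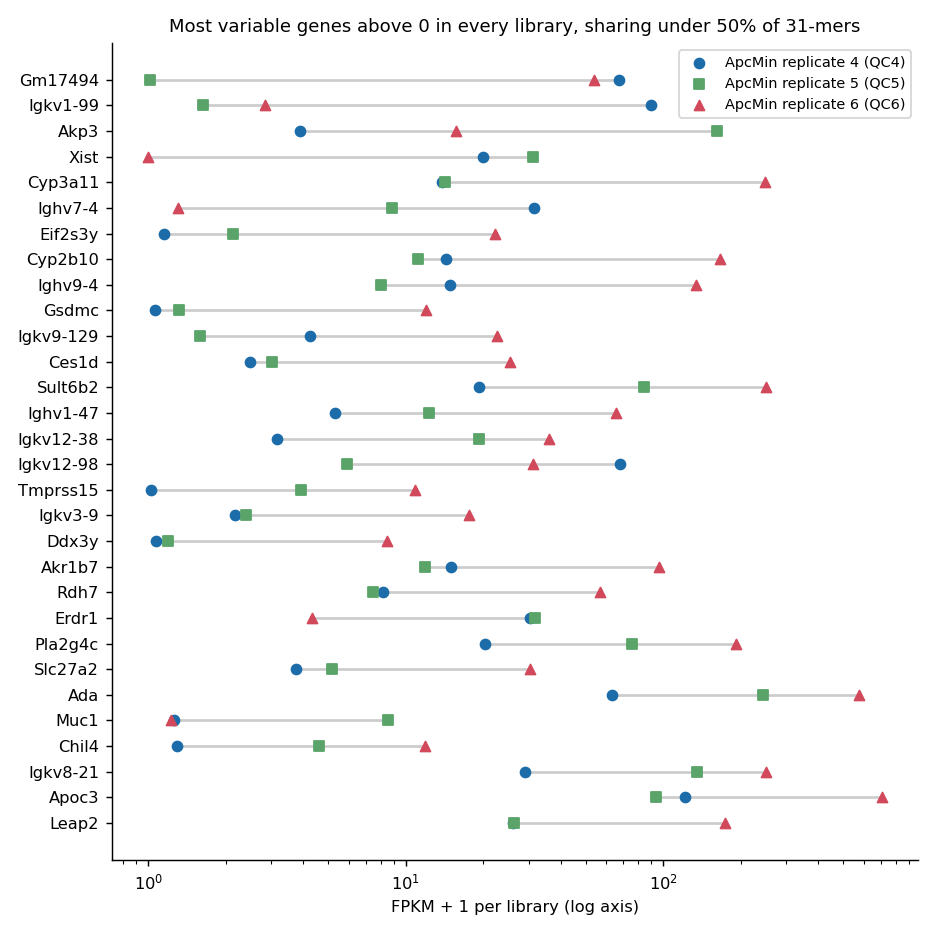
FPKM + 1 (x axis, log scale) in each ApcMin adenoma of the 30 most variable genes that are above 0 in every library and share under 50% of their 31-base stretches with other genes (y axis). QC6 is the highest library for most of them, and Akp3 and Muc1 are highest in QC5.

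The same spread was measured in the ApcMin_PCdel adenomas, with no comparison of the genotypes. There 728 of the same 14122 genes were 2-fold apart (5.16%). These genes had been kept by their mean FPKM in the ApcMin adenomas alone. A gene high in a single ApcMin adenoma could pass, while a gene high only in an ApcMin_PCdel adenoma could be left out. Counts, percentages and overlaps of the groups are therefore not on equal terms. With no filter, 1054 genes were 2-fold apart in the ApcMin adenomas and 874 in the ApcMin_PCdel adenomas. Of the 955 genes that were 2-fold apart in the ApcMin adenomas, 341 (35.7%) were so in the other group too, which is 46.8% of its 728, and of the genes that were not, 2.94% were. The enterocyte list had 3 of 19 genes 2-fold apart there, the alpha-defensins 6 of 15 and the immunoglobulin segments 120 of 195. Of the 30 most variable genes in the first ranking, 23 were also 2-fold apart in that group, and 22 of 30 in the second. Both counts include sex-linked genes, which set QC3 apart in that group. Xist was at 0.00354 in QC3, 37.4 in QC8 and 16.7 in QC10, and Eif2s3y at 24.3 in QC3, 0 in QC8 and 0 in QC10.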

How the data were processed

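RNA from small intestinal adenomas was sequenced after TruSeq RNA preparation on a HiSeq2500, 1 library per sample. The authors deposited for each gene the FPKM and TPM (both scaled for length and library size) and the mean read coverage, an unscaled signal used here only for depth, 5.407 to 5.876 aligned gigabases over the 6 libraries. The study's methods name CLC Genomics Workbench 7 for alignment. Which program wrote these columns is not given in the sources used here. FPKM of entries with one gene identifier were summed. Of 14090 tested genes found in GENCODE M21 (GRCm38), 11309 had its exact chromosome, start and end.

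Values were compared as log2(FPKM + 1), with a pseudocount of 1, over the 14122 genes that averaged at least 1 FPKM in the 3 ApcMin libraries. A single group without a contrast allows no test, so ranges and SD (n = 3) are given. A library stands apart where its gap to the middle value is the larger. Genes named are the 20 most abundant, the highest and most variable members of each list, the 30 with the largest SD, the 5 highest and 5 lowest of each library (named where space allowed), all Defa genes and Gapdh. Kinases of the Rps6k group were left out of the ribosomal proteins. Gene lists, members and motifs were chosen with earlier results of these data known. Shared sequence is the percent of a gene's 31-mers found in another gene's transcripts, on either strand. Alternatives were a pseudocount of 0.1, a minimum mean of 5, no filter, TPM, quantile normalization, median centring, single libraries left out and, added after the data were seen, genes that share sequence left out. The range rule and the 31-mer search were tested on simulated data. Python 3.11.15, pandas 2.3.3 and numpy 2.4.6 were used.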

Additional observations from a re-analysis of the deposited data

How the results depend on the processing

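The count of genes 2-fold apart among the ApcMin adenomas stayed within 1.5 times of 955 under a pseudocount of 0.1, a minimum mean FPKM of 5, no filter, TPM, quantile normalization, median centring and without genes sharing sequence, and ranged from 248 without replicate 6 to 668 without replicate 5. The fall to 248 follows from leaving out QC6, and pairs have a smaller range than triples by construction. The count of 728 in the ApcMin_PCdel adenomas stayed within 1.5 times of itself in the same way and ranged from 353 to 415 with single libraries left out. QC6 stood apart in 66.1% of the 2-fold genes, within 10 percentage points of that in each alternative run. The share of FPKM in the 10 most abundant genes was 12.0% on average, and 8.14% without genes sharing sequence, where 4 mitochondrial copies, Sprr2a2 and Gm23935 leave the ranking. No list whose median in QC6 differed from QC4 and QC5 by at least 0.1 on the log2 scale changed sign under quantile normalization, TPM, median centring or a pseudocount of 0.1. Of 71 named genes, the range of 17 moved by more than 1 SD with a pseudocount of 0.1 and of 6 with quantile normalization. No paired analysis was possible because the result comes from no test and the groups share no replicate numbers. With 3 samples, no read counts and no normal mucosa, neither detection limits nor a difference from normal tissue can be given.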

Other observations

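Gene families were taken from the letters before the first digit of a symbol, over all 147 families with at least 10 tested genes. The grouping was made after the values were seen and includes families already described above. In 75 of the families no gene was 2-fold apart, and in 14 more than 20% were, against 6.76% of all genes tested. The 14 include Defa, Ighv and Igkv, which are described above. The families named below were chosen with these counts known. Cytochrome P450 genes (Cyp) had 18 of 36 genes 2-fold apart, each with QC6 high, which held for 2.85% of all genes. Cyp3a13 stood at 124 in QC4, 126 in QC5 and 328 in QC6 and Cyp2d26 at 52.8 in QC4, 42.3 in QC5 and 154 in QC6, so QC4 and QC5 were alike in both. The UDP-glucuronosyltransferases (Ugt), which conjugate drugs and bilirubin, had 8 of 13, and summed to 203 in QC4, 198 in QC5 and 428 in QC6 FPKM. The Nat symbols, mostly Nat8 relatives, had 7 of 11. Solute carriers (Slc) had 39 of 237 genes 2-fold apart (16.5%, against 6.76% of all genes), with QC6 high in 31 of them. Slc6a19, which takes up neutral amino acids, was at 64.9 in QC4, 61.9 in QC5 and 197 in QC6, and Slc2a2, the glucose transporter of the basal membrane, at 10.4 in QC4, 10.1 in QC5 and 52.7 in QC6.

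Annexins (Anxa) went the other way, with 3 of 12 genes 2-fold apart, each with QC6 low, which held for 1.61% of all genes. Anxa8 was at 46.9 in QC4, 44.9 in QC5 and 14.8 in QC6 and Anxa3 at 49.1 in QC4, 57.1 in QC5 and 24.05 in QC6. Slc34a2, a phosphate transporter, was one of the 4 solute carriers lowest in QC6 at 2-fold, with 9.59 in QC4, 11.003 in QC5 and 1.85 in QC6.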
